A study of Rattus norvegicus with 6 samples.

Results

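The Notch pathway was followed through 10 of its genes in rat myocardium: the receptors Notch1, Notch2, Notch3 and Notch4, the ligands Dll4 and Jag1, and the targets Hes1, Hey1, Hey2 and Heyl. They were chosen by symbol, and each symbol matched 1 row among the 28293 genes of the deposited expression table. All 10 had a mean of at least 0.5 FPKM (fragments per kilobase of gene, scaled to library size) over the 6 samples, as did 10942 genes in all. The samples were 3 sham and 3 I/R myocardia from male wild-type rats. In the I/R group the left anterior descending artery was tied off for 30 min and then released for 6 h before the heart was taken. Sham titles carry the same times, and no drug is named in the labels of either group. The part of the heart that was sequenced is not stated, and the replicates are labelled only as separate samples, so a p-value measures the spread between these samples. The comparison asks how the level of each Notch gene differed between the hearts at this single time after reperfusion.

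Notch signalling runs between touching cells. A ligand on one cell binds a receptor on its neighbour, endocytosis of the ligand pulls on the receptor, ADAM proteases and then gamma-secretase cut it, and the freed intracellular part joins the DNA-binding protein RBPJ and a Mastermind coactivator at target genes. The Hes and Hey genes are the best known of these targets and encode basic helix-loop-helix repressors. In the vessels of the heart, Notch1, Notch4 and Dll4 are known from endothelial cells, whereas Notch3 and Heyl are known from mural cells, the smooth muscle cells and pericytes around them.

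The stretches of DNA before 4 of the genes are shown because RBPJ is known to act through such windows: those of Notch3 and Heyl, which were called higher in I/R, and those of Hes1 and Hey2, which did not pass the test but held the longer RBPJ motif. RefSeq windows (build GRCr8) of the 250 bases before the start were matched for 8 of the 10 genes, all but Hey1 and Dll4. Capitals mark the RBPJ core TGGGAA on either strand, written TTCCCA when it lies on the other strand. The windows are chr11:84213046-84213295 on the minus strand for Hes1, chr1:28640850-28641099 on the plus strand for Hey2, chr5:140793021-140793270 on the plus strand for Heyl and chr7:11834586-11834835 on the minus strand for Notch3.
Hes1: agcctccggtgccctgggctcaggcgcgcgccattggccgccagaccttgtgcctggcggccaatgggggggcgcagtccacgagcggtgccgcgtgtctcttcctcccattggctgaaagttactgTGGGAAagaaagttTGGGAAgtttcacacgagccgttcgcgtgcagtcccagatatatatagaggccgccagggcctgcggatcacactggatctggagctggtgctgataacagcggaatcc
Hey2: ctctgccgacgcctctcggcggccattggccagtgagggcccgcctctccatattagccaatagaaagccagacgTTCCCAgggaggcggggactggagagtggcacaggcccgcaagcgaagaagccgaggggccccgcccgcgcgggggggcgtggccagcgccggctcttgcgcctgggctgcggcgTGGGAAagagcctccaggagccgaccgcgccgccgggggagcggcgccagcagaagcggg
Heyl: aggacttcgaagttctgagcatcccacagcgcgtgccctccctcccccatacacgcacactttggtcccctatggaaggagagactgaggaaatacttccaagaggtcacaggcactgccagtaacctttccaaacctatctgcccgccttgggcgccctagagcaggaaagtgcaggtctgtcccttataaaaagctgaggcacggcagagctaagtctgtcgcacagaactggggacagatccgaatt
Notch3: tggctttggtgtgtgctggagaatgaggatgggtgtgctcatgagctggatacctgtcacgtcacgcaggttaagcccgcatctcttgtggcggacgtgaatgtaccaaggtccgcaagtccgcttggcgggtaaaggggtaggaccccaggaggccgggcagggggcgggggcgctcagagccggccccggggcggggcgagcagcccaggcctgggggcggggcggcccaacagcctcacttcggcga
The core was found in 3 of the 8 windows, those of Hes1, Hey2 and Notch4, and each of them held 2 matches. Among all 33469 windows of the same length, 22.1% held at least 1 match and 2.71% held 2 or more. In Hes1 both matches lay on the gene's own strand, at bases 123 to 118 and 109 to 104 before the start. In Hey2 they lay on opposite strands, at bases 175 to 170 and 60 to 55. The longer form GTGGGAA, which contains the core, was present in Hes1 and Hey2 and in 5.27% of all windows. CACNAG, the N box that Hes proteins can bind, occurred on either strand in 4 of the 8 windows (Notch1, Notch3, Notch4 and Hes1) and in 37.2% of all windows. Notch3 and Heyl thus had no core match in the printed bases. A match is a run of letters and says nothing of binding.

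The libraries of the groups differed as a whole. Summed FPKM was 894902 to 928941 in sham and 731063 to 825490 in I/R, and the 13 mitochondrially encoded mRNAs took 80.1% to 86.2% of it in sham against 61.8% to 71.5% in I/R. The log2 fold changes of all genes had a median of 0.29 in the deposited values and of -0.46 once each sample's FPKM was divided by its total without these 13 (called the rescaled values). Absolute depth is unknown. Relative depth, read from the steps of low values with sham replicate 1 set to 1, was 1.18 and 1.14 in sham replicates 2 and 3. It was 0.873, 0.935 and 0.881 in I/R replicates 1 to 3, so every I/R library was shallower than every sham library. The tissue label was checked against marker genes. All 7 cardiomyocyte markers found in the table were expressed, with a summed level of 3235, 3625 and 10246 FPKM in the sham samples (highest in sham replicate 1) and 19276 to 25578 FPKM in I/R. Myl7, an atrial myosin gene, was at 133 FPKM in I/R replicate 3 and at 0.905 to 3.57 FPKM in the other 5 samples. In bulk tissue, fewer cells of a type and less RNA per cell cannot be told apart.

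Of the 10 Notch genes, Notch3 and Heyl were higher in I/R and Hey1 was lower in the deposited values, at an adjusted p under 0.05 (limma on log2(FPKM + 0.1), Benjamini-Hochberg over all 10942 genes), and the direction of Heyl turned in the rescaled values. These 2 higher calls stand against 25.5% of all genes called higher, and the 1 lower call against 7.36% called lower. The sample ranges did not overlap for 4 genes higher in I/R (Notch3, Dll4, Hes1 and Heyl), where 37.2% of all genes behaved this way, and for 3 genes lower in I/R (Notch4, Jag1 and Hey1), where 13.0% did. The median log2 fold change of the 10 genes was 0.09, beside 0.29 for all genes. In the rescaled values none of the 10 was called higher (7.25% of all genes were) and Notch1, Notch4, Jag1 and Hey1 were called lower (26.1% of all genes were), with a median of -0.64 for the 10 genes beside -0.46.

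**Figure D1:**
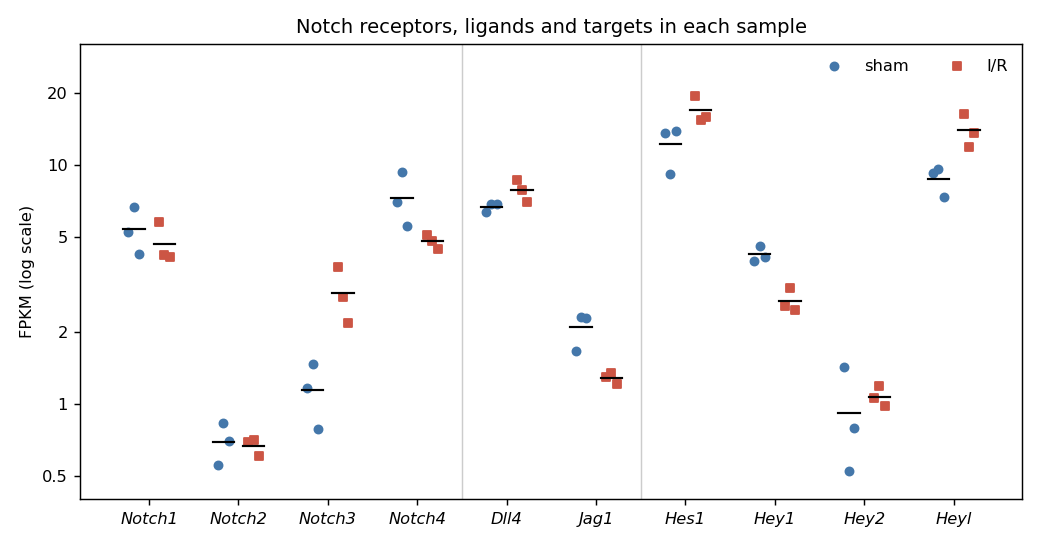
FPKM (log axis) of the 10 Notch genes in 3 sham samples (blue circles) and 3 I/R samples (red squares), with a black bar at each group mean and grey lines between receptors, ligands and targets. Notch3, Dll4, Hes1 and Heyl sit higher in every I/R sample than in any sham sample, and Notch4, Jag1 and Hey1 sit lower.

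Among the receptors, Notch3 was the one whose level rose. Notch3 stood at 1.16, 1.47 and 0.788 FPKM in sham replicates 1 to 3 and at 3.73, 2.79 and 2.18 FPKM in I/R replicates 1 to 3. Every I/R sample was above every sham sample, and the I/R mean (2.90 ± 0.785, SD, n = 3) was 2.55 times the sham mean (1.14 ± 0.340, SD, n = 3). The log2 fold change of Notch3 was 1.28 (SE 0.29, 95% interval 0.63 to 1.94, limma adjusted p = 0.0106), 0.99 above the median of all genes, and 12.5% of all genes had a higher one. It remained called when any 1 of the 6 samples was left out, with log2 fold changes of 1.06 to 1.47 and limma adjusted p-values up to 0.0453. Rescaling left Notch3 with a log2 fold change of 0.54, which was not called (limma adjusted p = 0.217).

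Notch4, a receptor of endothelial cells, had 6.99, 9.34 and 5.53 FPKM in sham and 5.10, 4.79 and 4.45 FPKM in I/R. The I/R samples lay close together and below all sham samples, while the sham samples spread widely (7.29 ± 1.92 against 4.78 ± 0.325, SD, n = 3 each). With a log2 fold change of -0.57 (SE 0.24, 95% interval -1.11 to -0.02), Notch4 missed the threshold (limma adjusted p = 0.0990). After rescaling it was -1.34 and called (limma adjusted p = 0.0039).

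Notch1, the most broadly used receptor of the endothelium, had 5.24, 6.64 and 4.22 FPKM in sham and 5.74, 4.17 and 4.09 FPKM in I/R. These ranges overlapped, and the log2 fold change of -0.19 (95% interval -0.75 to 0.37) did not pass the test (limma adjusted p = 0.586). Rescaled, Notch1 was at -0.96 and was called lower (limma adjusted p = 0.0197). Notch2 was the lowest of the receptors, at 0.553, 0.831 and 0.696 FPKM in sham and 0.691, 0.703 and 0.603 FPKM in I/R. All its I/R values lay inside the sham range, and its log2 fold change was -0.04 (95% interval -0.73 to 0.65, limma adjusted p = 0.934).

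The make-up of the receptor pool differed between the groups in Notch3 and Notch4. Of the summed FPKM of the 4 receptors, Notch3 made up 8.3%, 8.0% and 7.0% in the sham samples and 24.5%, 22.4% and 19.2% in the I/R samples. Notch4 made up 50.1%, 51.1% and 49.2% in sham and 33.4%, 38.4% and 39.3% in I/R. Neither set of shares overlapped between the groups (two-sided exact permutation p = 0.1 each, the smallest that 3 against 3 can give). How often the shares within other sets of genes do not overlap was not tested. Log2 ratios did not overlap for 49.3% of all pairs of tested genes, so separation of such ratios was common in these samples. Notch1 kept overlapping shares, with means of 37.2% in sham and 35.8% in I/R. A common scaling factor of a library leaves such shares as they are.

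**Figure D2:**
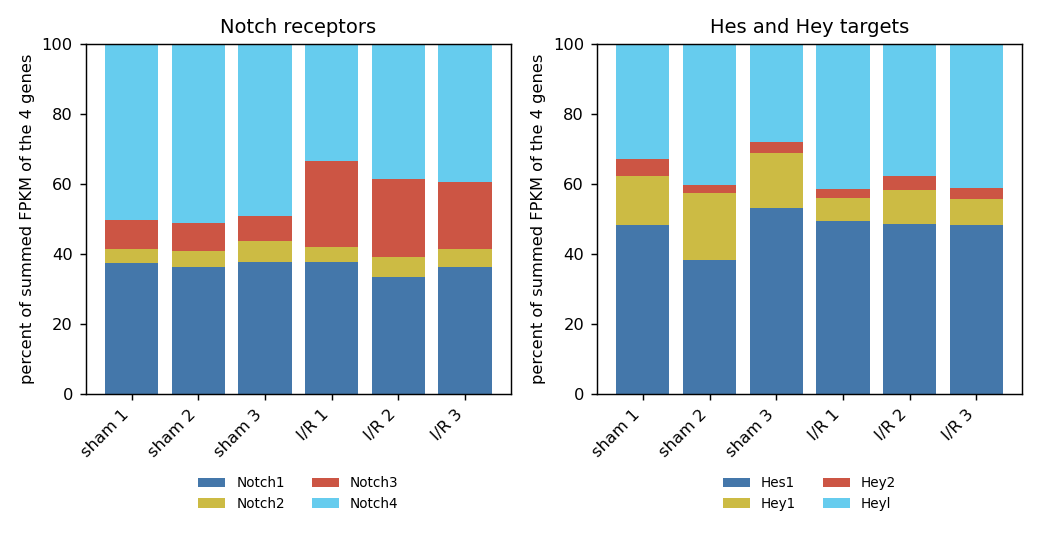
Stacked bars of the percentage of summed FPKM that each gene took among the 4 receptors (left) and among the 4 Hes and Hey targets (right) in each of the 6 samples. The Notch3 band is wider and the Notch4 band narrower in the 3 I/R samples, and the Hey1 band is narrower in all 3.

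The ligands lay on opposite sides of their sham levels. Dll4, a ligand of arterial and sprouting endothelium, had 6.33, 6.85 and 6.83 FPKM in sham and 8.59, 7.82 and 7.01 FPKM in I/R, and Jag1, a ligand shared by endothelial and mural cells, had 1.67, 2.31 and 2.28 FPKM in sham and 1.29, 1.34 and 1.21 FPKM in I/R. All 3 I/R samples were above the sham samples for Dll4 and below them for Jag1. Neither level passed the test as deposited: the log2 fold change of Dll4 was 0.22 (95% interval -0.24 to 0.68, limma adjusted p = 0.440) and that of Jag1 was -0.65 (95% interval -1.17 to -0.13, limma adjusted p = 0.0575). Jag1 was called when sham replicate 1 was left out (limma adjusted p = 0.0399), after median centring (-0.90, limma adjusted p = 0.0143), after quantile normalization (-0.76, limma adjusted p = 0.0242) and on the rescaled values, where it was at -1.39 (limma adjusted p = 0.0078). The direction of Dll4 depends on the scaling, with -0.56 on the rescaled values, -0.28 after quantile normalization and -0.03 after centring on the median. Within each sample, the log2 ratio of Dll4 to Jag1 was 1.86, 1.53 and 1.54 in sham and 2.64, 2.46 and 2.44 in I/R, a difference of 0.87 (two-sided exact permutation p = 0.1, the smallest possible). Dll4 thus took 76.3% ± 2.47 of the summed FPKM of both ligands in sham and 85.8% ± 0.941 in I/R (SD, n = 3 each). The ratio of Dll4 to Jag1 did not overlap between the groups, and neither did that of 49.3% of all pairs of tested genes.

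Among the targets, 1 was called higher and 1 lower. Heyl, a target known from mural cells, rose from 9.25, 9.60 and 7.30 FPKM in the sham samples to 16.3, 11.9 and 13.6 FPKM in the I/R samples, and the groups did not overlap. Its log2 fold change was 0.67 (SE 0.23, 95% interval 0.15 to 1.18, limma adjusted p = 0.0496), 0.38 above the median of all genes. The call was lost when any 1 of the 6 samples was left out (limma adjusted p = 0.0595 to 0.179), and on the rescaled values the log2 fold change was -0.11 (limma adjusted p = 0.754).

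Hey1, a target of endothelial Notch, fell from 3.97, 4.58 and 4.11 FPKM in sham to 2.57, 3.05 and 2.46 FPKM in I/R. Within each group the samples lay close together, and no I/R sample reached the sham range (4.22 ± 0.318 against 2.69 ± 0.315, SD, n = 3 each). For Hey1 the log2 fold change was -0.63 (SE 0.21, 95% interval -1.10 to -0.16, limma adjusted p = 0.0427), 0.92 below the median of all genes. In a fit blocked on replicate number the limma adjusted p of Hey1 was 0.0517, so that none of the 10 genes was then called lower, and without any 1 of the 6 samples it was 0.0596 to 0.136. Rescaling put Hey1 at -1.40, which was called (limma adjusted p = 0.0037).

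Hes1, whose window held a pair of core matches, was the most abundant of the 10 genes in both groups. It had 13.6, 9.12 and 13.9 FPKM in sham and 19.5, 15.3 and 15.9 FPKM in I/R, with sham replicate 2 well below the other sham samples. The I/R samples were all above the sham samples, but the log2 fold change of 0.48 (95% interval -0.07 to 1.03) did not pass the test (limma adjusted p = 0.156), and it was -0.30 on the rescaled values and -0.24 after quantile normalization. Hey2, known from ventricular muscle and arterial endothelium, had 1.43, 0.522 and 0.793 FPKM in sham and 1.05, 1.18 and 0.977 FPKM in I/R. The sham samples spanned the I/R samples on both sides, and the log2 fold change was 0.30 (95% interval -0.48 to 1.09, limma adjusted p = 0.533). This value moved to -6.2e-05 without sham replicate 2 and to 0.65 without sham replicate 1.

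Of the summed FPKM of the 4 targets, Hey1 took 14.0%, 19.2% and 15.8% in sham and 6.5%, 9.7% and 7.5% in I/R, without overlap. The shares of Hes1, Hey2 and Heyl overlapped between the groups. How often a share such as that of Hey1 does not overlap in other sets of genes was not tested. Ratios between genes of the same role were formed within each sample for all 13 possible pairs of receptors, ligands and targets, and for 9 of the 13 pairs the groups did not overlap. Among all pairs of the 10942 genes, 49.3% did not overlap. The log2 ratio of Notch3 to Notch4 showed the widest gap, from -2.58 ± 0.0877 in sham to -0.73 ± 0.281 in I/R (SD, n = 3 each), a difference of 1.85. The log2 ratio of Hey1 to Heyl differed by -1.30, with means of -1.02 in sham and -2.32 in I/R. That of Hes1 to Hey1 differed by 1.12, with means of 1.49 in sham and 2.60 in I/R. Each of these differences had a two-sided exact permutation p of 0.1, the smallest possible, before any adjustment over the 13 pairs.

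**Figure D3:**
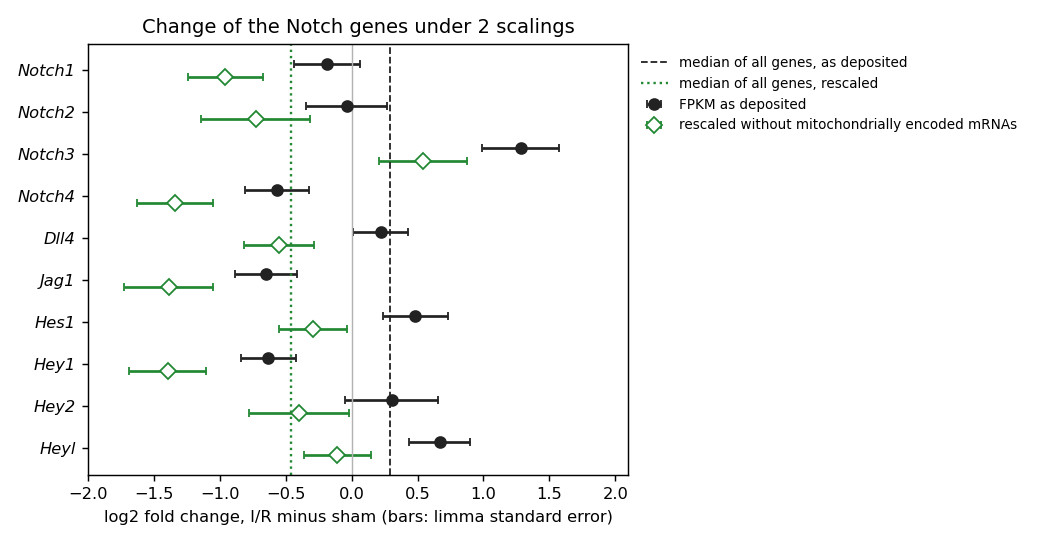
Log2 fold change (I/R minus sham, with bars of 1 limma standard error) of the 10 Notch genes in the deposited FPKM (black circles) and after rescaling over genes other than the mitochondrially encoded mRNAs (green diamonds), with the median of all genes under each scaling as a vertical line (dashed for 0.29, dotted for -0.46). Notch3, Hes1, Hey2 and Heyl lie to the right of the median line under both scalings. Notch1, Notch2, Notch4, Dll4, Jag1 and Hey1 lie to the left under both.

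FPKM is divided by gene length, which allows a rough order of levels between genes. The annotation that gave the lengths is not stated, so this order is approximate. In sham the order of mean levels was Hes1, Heyl, Notch4, Dll4, Notch1, Hey1, Jag1, Notch3, Hey2 and Notch2. Neighbours from Hes1 down to Hey1 overlapped, Jag1 lay apart from both its neighbours, and Notch3, Hey2 and Notch2 overlapped. In I/R the order was Hes1, Heyl, Dll4, Notch4, Notch1, Notch3, Hey1, Jag1, Hey2 and Notch2. There the ranges of Hes1 and Heyl, of Notch4 and Notch1, and of Notch3 and Hey1 overlapped, and every other pair of neighbours lay apart. Notch3 was thus below Hey1 and Jag1 in sham, and in I/R it was above Jag1 and overlapped with Hey1.

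Because most of these genes are known from vessel cells, each was also set against 10 endothelial markers of the same sample (Pecam1, Cdh5, Kdr, Tie1, Tek, Vwf, Erg, Emcn, Egfl7 and Esam). None of the 10 markers was called in the deposited values. Yet the groups did not overlap for Kdr, which was higher (log2 fold change 0.72), and Tek, which was lower (-0.55). Among all genes, 37.2% did not overlap and were higher, and 13.0% were lower. In the rescaled values 5 markers were called lower, beside 26.1% of all genes. After quantile normalization 7 were called lower, beside 1559 of all 10942 genes. Kdr was called higher with the replicate block (limma adjusted p = 0.0451). The mean log2 level of the 10 markers in the deposited values was 4.43 ± 0.217 in sham and 4.47 ± 0.0628 in I/R (SD, n = 3 each). Against that mean, 5 of the 10 Notch genes did not overlap between the groups. Notch3 was higher by 1.24 and Heyl by 0.63 (35.5% of all genes did not overlap and were higher), while Notch4 was lower by 0.61, Jag1 by 0.69 and Hey1 by 0.68 (16.2% of all genes did not overlap and were lower). These are differences on the log2 scale, each with a two-sided exact permutation p of 0.1, the smallest possible. Dll4 and Hes1, whose FPKM did not overlap, overlapped on this scale, with differences of 0.18 and 0.44. The 5 genes were the same without Kdr, Tek and Tie1 among the markers.

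**Figure D4:**
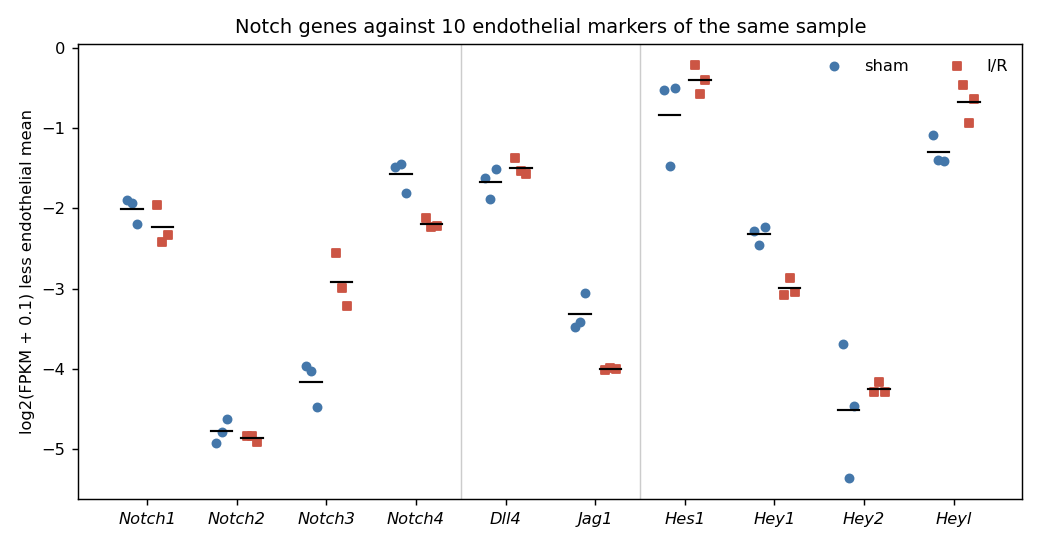
Log2(FPKM + 0.1) of each Notch gene less the mean of 10 endothelial markers in the same sample, for 3 sham samples (blue circles) and 3 I/R samples (red squares), with group means as black bars. Notch4, Jag1 and Hey1 are lower in all I/R samples than in any sham sample, and Notch3 and Heyl are higher.

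Markers of mural cells, in which Notch3 and Heyl are known, did not move as 1 group. Of 9 such markers Rgs5 was called higher (22.3 FPKM in sham, 54.3 in I/R), beside 25.5% of all genes. Pdgfrb (11.3 and 7.09 FPKM) and Kcnj8 (15.0 and 7.97 FPKM) were called lower, beside 7.36% of all genes. The other 6 were not called, among them Abcc9 (log2 fold change 0.18) and Cspg4 (0.23), and 7 of the 9 were above 0. The summed level of the 9 markers was 108 to 295 FPKM in sham and 160 to 347 FPKM in I/R, with none of the 9 at 0. Smooth muscle genes stood high in sham replicate 1, where Acta2 was at 103.6 FPKM against 31.1 and 22.0 FPKM in the other sham samples. In I/R replicates 1 to 3 Acta2 was at 35.8, 82.3 and 117.6 FPKM. Notch3 was at 1.16 FPKM in sham replicate 1, between the other sham samples. As deposited, none of the 5 arterial endothelial markers was called. Of these, Sox17 was higher (log2 fold change 0.75) and Bmx lower (-0.86) without overlap, beside 37.2% and 13.0% of all genes. As for the other types, 2 of 7 fibroblast, 2 of 7 leukocyte and 6 of 7 cardiomyocyte markers were called higher, beside 25.5% of all genes. In the rescaled values 7.25% of all genes were called higher and 26.1% lower. There 3 arterial markers were called lower, 2 fibroblast markers lower, 1 leukocyte marker higher and 1 lower, and 5 cardiomyocyte markers higher. Of the mural markers 0 were called higher and 2 lower. The part of these cell types in the levels of the Notch genes was not tested.

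The rest of the pathway was read from a list of 60 further genes, of which 50 passed the filter and were tested. Of the 50, 9 were called higher and 1 lower, against 25.5% and 7.36% of all genes, and their median log2 fold change was 0.25, beside 0.29 for all genes. The counts were 9 and 1 with the replicate block as well. Without sham replicate 2, and likewise without sham replicate 3, the higher count was 5. The rescaled values had 1 called higher and 9 lower, against 7.25% and 26.1% of all genes.

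The tested genes listed as targets outside the 10 genes stood to the right of the median, as the plot by role shows. Nrarp, a target that limits Notch signalling, was at 5.83, 5.43 and 5.53 FPKM in the sham samples and at 14.5, 12.2 and 9.70 FPKM in the I/R samples. The sham samples were nearly alike and every I/R sample was well above them, with a log2 fold change of 1.08 (SE 0.23, limma adjusted p = 0.0079). Rescaling put Nrarp at 0.31, which was not called (limma adjusted p = 0.364). Hes2 rose from a mean of 1.02 to 3.64 FPKM (log2 fold change 1.87, limma adjusted p = 0.0068) and Hes6 from 3.49 to 7.16 FPKM (1.04, limma adjusted p = 0.0135). Thus 3 of the 5 tested genes of this list were called higher, beside 25.5% of all genes. The windows of Nrarp, Hes2 and Hes6 held no RBPJ core, and whether Notch regulates Hes2 and Hes6 here was not tested. Hes6 is known to act against Hes1 rather than as a plain repressor.

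Upstream of the receptors' cut, Mfng was the gene that fell. It encodes Manic fringe, a glycosyltransferase that adds sugars to Notch receptors and changes which ligand they answer to. Mfng was at 8.12, 13.1 and 10.9 FPKM in sham and at 5.80, 4.82 and 3.34 FPKM in I/R. All I/R samples were below all sham samples, with a log2 fold change of -1.19 (SE 0.28, limma adjusted p = 0.0113), and it was at -1.96 on the rescaled values. The other 4 tested glycosylation genes were not called as deposited, and on the rescaled values Pofut1 (-1.27) and Poglut1 (-1.20) were called lower too. Epn1, an epsin of ligand endocytosis, was higher (11.4 to 34.2 FPKM, log2 fold change 1.47, limma adjusted p = 0.0111), with I/R replicate 1 at 54.9 FPKM and the other I/R samples at 24.8 and 23.0 FPKM. The other ligands and the ADAM proteases had no call as deposited among the 3 and 2 genes tested. On the rescaled values Adam10 (-1.03) was called lower.

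In gamma-secretase, the enzyme of the final cut, 2 of 5 tested subunit genes were called higher, beside 25.5% of all genes. Aph1a went from a mean of 4.45 to 10.3 FPKM (log2 fold change 1.16, limma adjusted p = 0.0111) and Psenen from 23.7 to 47.0 FPKM (0.97, limma adjusted p = 0.0200), whereas Ncstn, the substrate-binding subunit, had a log2 fold change of 0.44 and was not called (limma adjusted p = 0.158). In the nuclear complex, none of 6 tested genes was called as deposited, and RBPJ's own gene was at 1.91 FPKM in sham and 2.07 FPKM in I/R. The rescaled values had Ep300 (-1.24) and Kat2b (-1.03) called lower there, beside 26.1% of all genes. Of 9 corepressors 3 were called higher, again beside 25.5% of all genes, among them Tle5 (127 to 423 FPKM, log2 fold change 1.86, limma adjusted p = 0.0059) and Ctbp1 (15.9 to 28.7 FPKM, 0.84, limma adjusted p = 0.0209), and Cir1 was not called (-0.09, limma adjusted p = 0.785). Tle5, a short Groucho relative, was the only 1 of the 50 genes still called higher on the rescaled values. Among the corepressors, Cir1 (-0.86) and Tle1 (-1.10) were called lower on those values. Among 9 tested genes of receptor turnover none was called as deposited, with Nedd4, the most abundant, at a log2 fold change of 0.25 (limma adjusted p = 0.474). Itch (-0.85) was called lower on the rescaled values.

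**Figure D5:**
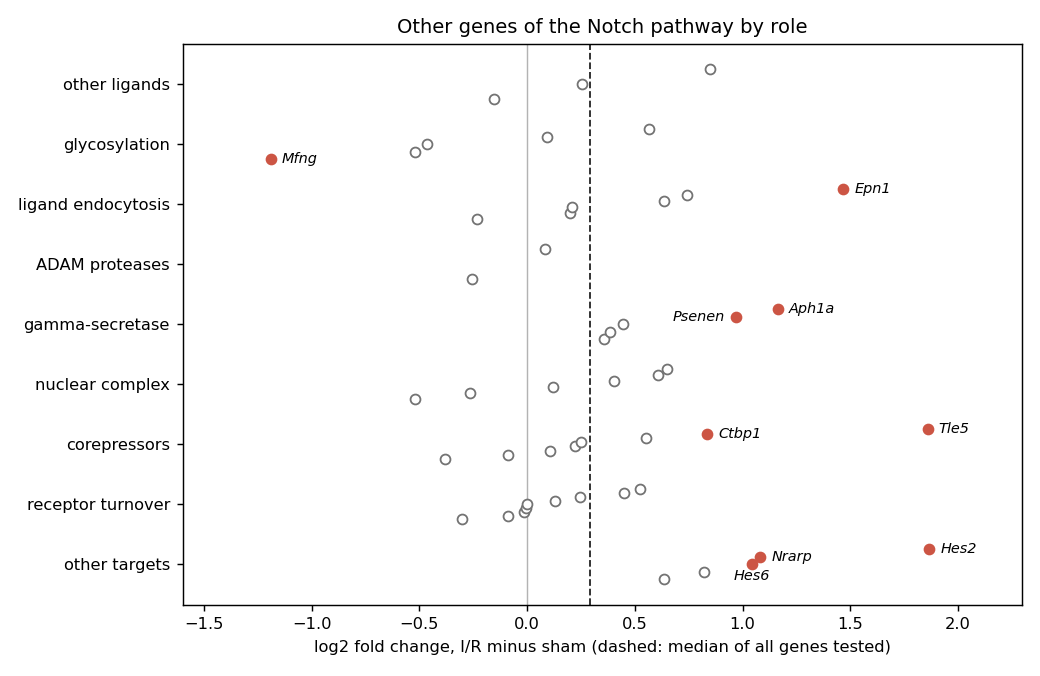
Log2 fold change (I/R minus sham) of 49 of the 50 tested further pathway genes, in rows by role. Filled red points with names passed the test and open points did not, and the dashed line is the median of all genes tested, 0.29. Mfng is the single named gene on the left, and 3 of the 5 genes in the row of other targets are named on the right.

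For each Notch gene, the genes with the most similar pattern over the 6 samples were listed by Pearson r of log2(FPKM + 0.1) among 9112 genes with a mean of at least 1 FPKM, as a description. The samples fall into 2 groups and share their library scaling, so high values of r are common. For Notch3 they were Trappc9 (0.9994), Dnal4 (0.998) and Msi2 (0.997), and for Heyl they were Klhdc3 (0.998), Dnajb11 (0.997) and Med16 (0.996). For Hey1 they were Abcc1 (0.996), Pan3 (0.994) and Tbc1d4 (0.992). Jag1 was closest to Bivm (0.996), Slc50a1 (0.996) and Tmem106a (0.996), and Notch4 to Senp1 (0.991), Ube2c (0.990) and Prrg2 (0.985). Dll4 was closest to Thap12 (0.9991), Med10 (0.996) and Nipa2 (0.995), and Hes1 to Hps6 (0.994), Vps29 (0.977) and Dbp (0.968). Notch1 was closest to Arhgap27 (0.988), Ppip5k1 (0.987) and Impdh1 (0.983), Notch2 to Thumpd1 (0.995), Aida (0.995) and Rdx (0.991), and Hey2 to Endov (0.975), Ddit4l (0.963) and a gene without a symbol. None of the named genes was itself a Notch gene of the list. Notch2 and Hey2 could not be named, since their means over the 6 samples (0.680 and 0.993 FPKM) were below 1 FPKM.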

How the data were processed

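RNA from 3 sham and 3 I/R rat myocardia was sequenced from stranded total RNA libraries. The authors deposited 1 table of FPKM values, per the file headers and labels. STAR and HTSeq are named in the submitters' processing notes, without versions; the genome build, the annotation, the strand setting and the total divided by are not given in the sources used here. No counts were used, so depth is unknown beyond the relative steps of low values, and whole steps (within 0.05) were seen in 83.5% of 2536 low genes.

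Columns were matched to samples by name. Rows sharing a symbol were summed (30452 rows to 28293 genes). Log2(FPKM + 0.1) of the 10942 genes with a mean of at least 0.5 FPKM was fitted with limma 3.58.1 (lmFit, eBayes with trend) in R 4.3.3, Benjamini-Hochberg adjusted over all of them, at 0.05. On this scale a fold change understates the change of low genes. Single values were compared by two-sided exact permutation tests. The fit was tested on simulated data, in which far fewer genes changed than were called here. It made few false calls there but missed small and moderate changes and many of the large ones. The simulation does not measure what was missed in the real data. No block was used, since no source pairs the samples; yet deviations of same-numbered samples correlated at 0.203, 0.117 and 0.118 (1 differently numbered pair, sham 3 with I/R 2, was at 0.120), so the number was also used as a block.

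The 10 genes and all lists were chosen with earlier results of these data known. Named besides them are the other pathway genes that passed the test (1 is counted but not reported singly here), the 3 most abundant that did not, the 3 genes closest in pattern to each, and marker genes; Rbpj, Myl7 and the mural genes given singly were chosen after their values were seen. Alternatives tried were pseudocounts of 1 and 0.01, no filter or 5 FPKM, TPM, median centring, quantile normalization, no trend, the block, rescaling without mitochondrially encoded mRNAs, the highest row per symbol, and leaving out each sample. Promoter windows came from RefSeq (GRCr8).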

Additional observations from a re-analysis of the deposited data

How the results depend on the processing

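Leaving out each sample in turn gave 1 Notch gene called higher in every case and 0 to 1 called lower, 1528 to 2557 of all genes higher and 309 to 881 lower, and 5 to 9 of the other pathway genes higher. The lowest counts of all genes came without sham replicate 3 (1528 higher, 359 lower) and without sham replicate 2 (1919 higher, 309 lower). The log2 fold change of Notch2 then ranged from -0.17 to 0.084 (0.02 without I/R replicate 3, the highest without sham replicate 2). That of Hey2 ranged from -6.2e-05 without sham replicate 2 to 0.65 without sham replicate 1. With the replicate block 0 Notch genes were called lower, since Hey1 was lost; the block changed no other call of the 10 genes or of the other pathway counts, and all genes gave 3085 higher and 895 lower.

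The scaling moved the results most. Calls that were higher made up 77.6% of calls as deposited, 56.5% after median centring, 48.0% after quantile normalization, 21.7% without mitochondrially encoded mRNAs, 87.3% as TPM and 91.9% with a filter at 5 FPKM. Notch genes called higher numbered 0 without mitochondrially encoded mRNAs and 1 after centring, after quantile normalization, without the trend, without a filter, with a pseudocount of 0.01 and with a filter at 5 FPKM, where 5 of the 10 genes were tested. Notch genes called lower numbered 3 after centring, 4 after quantile normalization, 4 without mitochondrially encoded mRNAs, and 0 as TPM, without the trend, without a filter and with a filter at 5 FPKM. Of all genes, 1441 and 793 were higher after quantile normalization and without mitochondrially encoded mRNAs; 1554, 1559, 2857, 504 and 166 were lower after centring, quantile normalization, without mitochondrially encoded mRNAs, as TPM and at 5 FPKM. Of the other pathway genes, 3 and 1 were higher after quantile normalization and without mitochondrially encoded mRNAs, and 4, 2 and 9 were lower after centring, quantile normalization and without mitochondrially encoded mRNAs. The log2 fold changes that turned were those of Dll4 (-0.029 after centring, -0.28 after quantile normalization, -0.56 without mitochondrially encoded mRNAs), Hes1 (-0.24 after quantile normalization, -0.30 without mitochondrially encoded mRNAs), Hey2 (-0.40) and Heyl (-0.11) without mitochondrially encoded mRNAs, and Notch1 (0.0024) and Notch2 (0.14) as TPM. Apart from these scalings and the filter's smaller number of genes, the cause was not tested. The counts against endothelial markers (5 to 7) and of pairs (9 to 11) stayed within 1.5 times. At the low levels of Notch2 and Hey2, the 95% intervals ran from -0.73 to 0.65 and from -0.48 to 1.09, so that smaller changes could not be seen.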
